A study of Homo sapiens and Mus musculus with 69 samples.

Results

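Messenger RNA of 9 genes at the entry to the cell cycle was followed in small cell lung cancer (SCLC) lines in which NOTCH1 signaling was switched on by a vector or by a drug. The genes were the CDK inhibitors *CDKN1A*, *CDKN1B*, *CDKN2A*, *CDKN2B* and *CDKN2C*, the D cyclins *CCND1*, *CCND2* and *CCND3*, and the retinoblastoma gene *RB1*. They were chosen by symbol, 9 of the 20516 genes in the human table and, under the mouse spelling, 9 of the 18501 genes in the table of mouse KP1 cells. Bulk RNA-Seq covered 60 human libraries in 20 groups and 9 KP1 libraries in 3 groups, with 3 libraries in each group. H82 cells (21 libraries) comprised parental cells and cells with a doxycycline-inducible vector for the NOTCH1 intracellular domain (N1ICD, the active form of the receptor), without and with doxycycline, the latter pair also in lines with *REST* KO and with *STING* KO. H524 cells (15 libraries) comprised parental cells and cells with an inducible *N1ICD* or an inducible *REST* vector, each without and with doxycycline, and H69 cells (9 libraries) comprised parental cells and the *N1ICD* line without and with doxycycline. COR-L88 cells (15 libraries) received the vehicle DMSO, TAS1440, which inhibits the histone demethylase LSD1, or TAS1440 plus a gamma-secretase inhibitor (GSI) that blocks Notch receptor cleavage, and their *STING* KO derivative received DMSO or TAS1440. KP1 cells, which come from a mouse SCLC tumor with mutant *Rb1* and *Trp53*, received DMSO, TAS1440 or TAS1440 plus GSI. Per the study's methods these were long-term cultures in which adherent cells were collected after overexpression of *N1ICD* or *REST*, and the KO lines came from CRISPR editing. The parts of doxycycline and of this collection in differences between induced and uninduced cells were not tested. The methods also name different GSI compounds and doses for COR-L88 and KP1. The labels give no age, dose or time.

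The D cyclins bind CDK4 and CDK6, and these complexes phosphorylate the RB1 protein, which releases E2F factors to switch on genes for DNA synthesis. The INK4 inhibitors, encoded by *CDKN2A* (p16INK4A), *CDKN2B* (p15INK4B) and *CDKN2C* (p18INK4C), bind CDK4 and CDK6 directly. The CIP/KIP inhibitors p21 (*CDKN1A*) and p27 (*CDKN1B*) bind cyclin-CDK complexes more broadly. SCLC typically loses RB1 and p53 function, and p53 is the classical activator of *CDKN1A*.

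*CDKN1A* and *CDKN2B* were the inhibitors with the largest increases, and the 250 bases before their annotated starts are shown for orientation. Both come from RefSeq (GRCh38.p14), read 5′ to 3′ on the strand of the gene. Capitals mark the E-box letters CANNTG, the kind of site bound by factors of the bHLH class, to which NEUROD1 belongs.
CDKN1A, chr6:36678464-36678713, plus strand: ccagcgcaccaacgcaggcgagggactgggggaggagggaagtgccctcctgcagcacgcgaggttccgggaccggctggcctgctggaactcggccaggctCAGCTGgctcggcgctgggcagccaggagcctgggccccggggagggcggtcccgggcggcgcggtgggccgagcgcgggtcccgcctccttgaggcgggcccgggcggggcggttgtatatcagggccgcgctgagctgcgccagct
CDKN2B, chr9:22009306-22009555, minus strand: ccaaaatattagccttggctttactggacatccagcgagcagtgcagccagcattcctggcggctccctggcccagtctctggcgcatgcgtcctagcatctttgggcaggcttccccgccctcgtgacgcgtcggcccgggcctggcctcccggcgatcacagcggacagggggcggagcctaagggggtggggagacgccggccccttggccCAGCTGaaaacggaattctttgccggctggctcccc
Each window held 1 match to CANNTG, which 61.8% of the 35116 windows in the table hold at least once. It began 148 bases before the start of *CDKN1A* and 36 bases before that of *CDKN2B*. The letters GGGCGG, read on both strands, occurred 4 times before *CDKN1A*, with 1 overlapping pair, and 2 times before *CDKN2B*, against at least 1 match in 42.6% of the windows. Neither window held TGGGAA on either strand, the core letters of the site of the Notch partner RBPJ, which 20.8% of the windows hold. Windows for 7 of the 9 genes were in the table. G and C made up 76.4% of the *CDKN1A* window and 66.4% of the *CDKN2B* window, against a median of 58.0% over all windows. A match or its absence describes these letters alone.

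All gene values below are log2(RPKM + 1) as deposited, and a difference is that of group means on this scale with its standard error, which understates the change of genes near 0. Calls were made with limma at an adjusted *P* below 0.05 over all genes tested in the comparison. A gene entered the test of a line once 3 or more of its libraries reached 1 on this scale, which 8 of the 9 genes did in H82, H524 and COR-L88, 9 in H69 and 7 in KP1. *CCND1* missed this level in H82, *CDKN2B* in H524, *CCND2* in COR-L88, and *Cdkn2b* and *Ccnd3* in KP1. In H82 *CDKN1A* (9 libraries) and *CDKN2B* (7) reached 1 only in induced cells. *Ccnd1* and *Ccnd2* in KP1 (3 each) reached it only with TAS1440, and *CCND1* in COR-L88 (5) only with TAS1440, without or with GSI. These genes thus entered the tests only through groups in which they were high, and their calls carry this selection. Bulk RNA cannot tell fewer expressing cells from less RNA per cell. Nothing in the labels says that libraries of a group came from separate cultures, so *P* values measure the spread between these libraries, which may be technical.

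The labels were checked with the targeted genes and with cell markers. *NOTCH1*, in which vector and endogenous RNA cannot be told apart, was 4.26 to 5.56 in induced H82 N1ICD cells against 0.88 to 1.45 without doxycycline, 7.58 to 8.31 against 0.79 to 1.52 in H524 and 7.93 to 8.07 against 0.38 to 0.39 in H69. Parental cells held 0.01 to 0.04 in H82 and 0.23 to 0.73 in H524, below the uninduced N1ICD cells, and 0.58 to 0.62 in H69. H82 cells with *STING* KO held 1.77 to 2.15 *NOTCH1* without and 5.97 to 7.48 with doxycycline. The part of *NOTCH1* RNA in differences between uninduced groups was not tested. In COR-L88 *NOTCH1* was 0.61 to 0.74 with DMSO, 1.99 to 2.79 with TAS1440 and 6.71 to 6.75 with GSI added, and in KP1 *Notch1* was 0.03 to 0.06, 0.95 to 1.45 and 0.23 to 0.54. *REST* mRNA was 4.95 to 5.89 in induced H82 cells labelled *REST* KO against 6.13 to 6.48 in intact ones. *STING1*, listed as *TMEM173*, was 1.27 to 2.04 in induced H82 cells labelled *STING* KO against 1.07 to 1.17 in intact ones, and 0.96 to 1.16 against 2.03 to 2.54 in COR-L88 with TAS1440. The KO labels could therefore not be checked from RNA, and the H82 cells labelled *STING* KO had no less *STING1* RNA than intact ones. *NEUROD1* was 13.07 to 14.27 in parental H82 and H524 cells. Of 6 markers of blood, endothelial and fibroblast cells, *PTPRC*, *CD3E* and *LYZ* stayed at or below 0.379 in every human library. *PECAM1* was not listed for the human lines, so endothelial cells could not be checked there. In KP1 *Ptprc* and *Pecam1* stayed at or below 0.012, and *Cd3e* and *Lyz* were not listed. The fibroblast collagen gene *COL1A1* was 6.27 to 7.06 in induced H82 N1ICD cells, 5.19 to 5.40 in H524 and 10.97 to 11.09 in H69, and *DCN* was 3.66 to 3.80 in induced H69 cells. The summed RPKM of those of the 6 markers that were listed was 76.8 to 132 in induced and 0.296 to 11.0 in uninduced H82 N1ICD cells, 310.1 to 452 in induced *REST* KO cells, 35.6 to 41.4 and 0.586 to 1.50 in H524, and 2014 to 2198 and 0.967 to 1.50 in H69. In COR-L88 it reached 1.17 with TAS1440 and 0.046 with DMSO, and in KP1 12.8 and 0.031. The part of these cell markers in the results was not tested. The human table has an unusual scale between genes: *TIMM44*, a mitochondrial import gene, had the highest mean of all genes, 15.17, above *ACTB* at 12.92, while *Timm44* ranked 3416 in KP1. Levels of different human genes are therefore not set against each other below except where stated, whereas the length of a gene cancels when 1 gene is compared across libraries.

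*CDKN1A*, the gene for p21 (chromosome 6, 36644237 to 36655114 of GRCh37), rose in all 3 H82 comparisons of *N1ICD* induction and with TAS1440 in COR-L88, and fell with *N1ICD* in H69. In H82 it was 0.31, 0.21 and 0.12 in uninduced and 3.88, 3.42 and 3.40 in induced N1ICD cells, a difference of 3.35 (SE 0.27, adjusted *P* = 1.41e-08). With *REST* KO the values were 0.00, 0.01 and 0.05 without and 4.70, 4.80 and 5.84 with doxycycline (5.09, SE 0.27, adjusted *P* = 3.92e-11). Every induced library was thus far above every uninduced one, and the induced *REST* KO libraries were all above the induced intact ones. The response with *REST* KO exceeded that of intact cells by 1.74 (SE 0.39, adjusted *P* = 0.00408), in cells that also carried more *NOTCH1* RNA, 8.75 to 10.74 against 4.26 to 5.56. In *STING* KO cells *CDKN1A* went from 0.39, 0.32 and 0.07 to 3.06, 2.32 and 3.28 (2.63, SE 0.27, adjusted *P* = 4.87e-07). That response was lower than in intact cells by 0.72 (SE 0.39), which did not pass (adjusted *P* = 0.265).

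Starting levels of *CDKN1A* differed widely between the lines. Parental H69 cells held 6.69, 6.78 and 6.75, COR-L88 cells with DMSO 2.84, 2.29 and 3.34, parental H524 cells 1.53, 1.66 and 1.59, and parental H82 cells 0.61, 0.00 and 0.22, without overlap between any of these groups. H69, the line with the highest start, was the line in which induction lowered the gene: uninduced N1ICD cells had 5.75, 6.65 and 6.74, induced cells 4.36, 4.23 and 4.29 (−2.09, SE 0.23, adjusted *P* = 2.75e-05). In H524, *N1ICD* moved it from 2.47, 2.58 and 1.17 to 2.53, 2.95 and 2.78, groups that overlapped, with a difference of 0.68 (SE 0.38, adjusted *P* = 0.197). The *REST* vector in H524 raised it from 1.63, 0.77 and 1.00 to 2.20, 3.54 and 3.15 (1.83, SE 0.38, adjusted *P* = 0.0215). This call was lost without library 35, 36, 38 or 39, with adjusted *P* of 0.0991 to 0.111.

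LSD1 inhibition in COR-L88 raised *CDKN1A* from 2.84, 2.29 and 3.34 to 5.55, 6.29 and 6.38 (3.25, SE 0.30, adjusted *P* = 9.9e-07). With GSI added it stayed high, at 5.90, 5.90 and 5.46, which was 2.93 (SE 0.30) above DMSO (adjusted *P* = 8.38e-06). The difference between TAS1440 plus GSI and TAS1440 alone was −0.32 (SE 0.30, adjusted *P* = 0.408), with overlapping values. In *STING* KO cells TAS1440 raised it from 2.83, 2.86 and 2.61 to 5.65, 5.71 and 4.74 (2.60, SE 0.30, adjusted *P* = 1.29e-05). KP1 cells, which received another GSI compound at another dose, gave another picture. There *Cdkn1a* was 2.05, 2.07 and 1.70 with DMSO, 1.85, 1.51 and 1.35 with TAS1440 and 2.70, 2.80 and 3.64 with TAS1440 plus GSI, higher with GSI than without (1.47, SE 0.26, adjusted *P* = 0.00197), while TAS1440 against DMSO gave −0.37 (SE 0.26, adjusted *P* = 0.293).

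**Figure D1:**
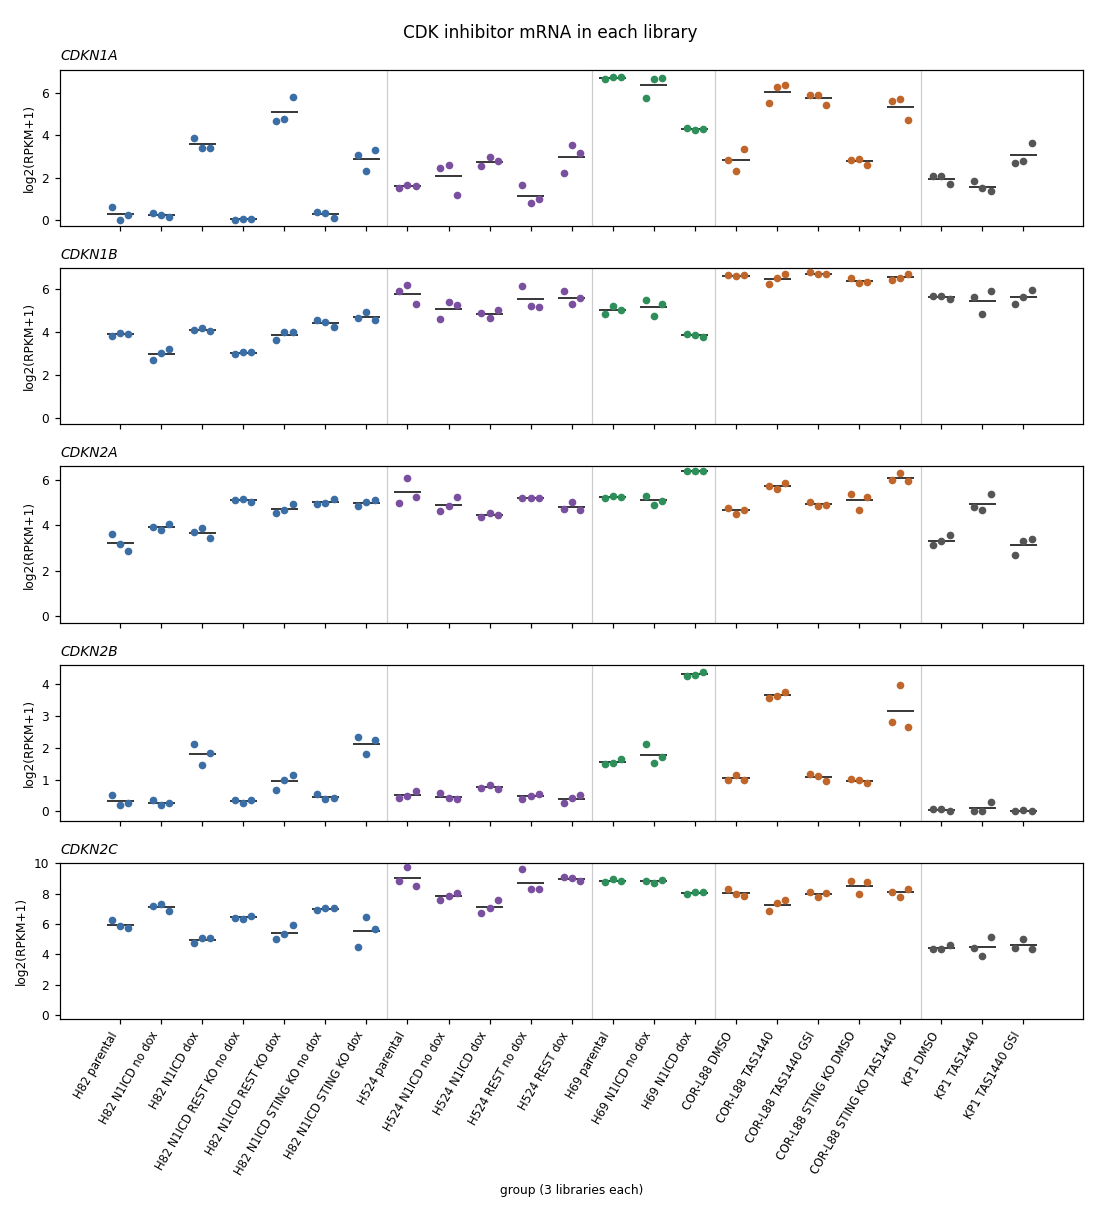
Log2(RPKM + 1) of the 5 CDK inhibitors in each library (points, colored by line) of the 23 groups, with the group mean as a black bar; vertical lines separate the lines, and KP1 values are of the mouse genes from a separately normalized table. *CDKN1A* was near 0 in uninduced H82 cells and 2.32 or more in every induced H82 library, whereas in H69 the induced libraries were the lowest, and *CDKN2B* was at 3.59 to 3.75 in COR-L88 with TAS1440 against 0.97 to 1.18 with GSI added.

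*CDKN1B*, the gene for p27 (chromosome 12, 12838432 to 12875303 of GRCh37), moved in opposite directions with *N1ICD* in H82 and H69. Its order among the untreated lines was COR-L88 with 6.57 to 6.62, H524 with 5.26 to 6.15, H69 with 4.82 to 5.19 and H82 with 3.80 to 3.93, without overlap. In H82 N1ICD cells it was 2.69, 3.02 and 3.19 without and 4.09, 4.15 and 4.04 with doxycycline (1.13, SE 0.16, adjusted *P* = 1.19e-05). The uninduced cells lay below parental cells by 0.90 (SE 0.16, adjusted *P* = 0.000773; 0.0789 with those groups alone in the model) and the induced ones were above the parental range. *REST* KO cells showed a rise from 2.97, 3.05 and 3.06 to 3.60, 4.00 and 3.96 (0.83, SE 0.16, adjusted *P* = 0.000276). In *STING* KO cells it started at 4.55, 4.46 and 4.20, above intact uninduced cells by 1.44 (SE 0.16, adjusted *P* = 4.21e-06), and induction gave 4.62, 4.91 and 4.55 (0.29, SE 0.16, adjusted *P* = 0.161), which was 0.60 above induced intact cells (SE 0.16, adjusted *P* = 0.00635). The response with *STING* KO was smaller than that of intact cells by −0.84 (SE 0.22, adjusted *P* = 0.025), a call lost without library 55, 56 or 60 (adjusted *P* = 0.0628 to 0.0727) and with those groups alone (0.0718). In H69 it fell from 5.49, 4.73 and 5.27 to 3.88, 3.87 and 3.77 (−1.32, SE 0.18, adjusted *P* = 0.000134). No comparison in H524, COR-L88 or KP1 called the gene with the settings used throughout, including TAS1440 in COR-L88 (−0.14, SE 0.12, adjusted *P* = 0.33; called at −0.28 with median-centred libraries, adjusted *P* = 0.041) and in KP1 (−0.16, SE 0.28, adjusted *P* = 0.694). Induced H524 N1ICD against *REST* cells gave −0.75 (SE 0.31, adjusted *P* = 0.0636; called with those groups alone, 0.01, and under quantile normalization, 0.0316). TAS1440 plus GSI against TAS1440 alone in COR-L88 gave 0.24 (adjusted *P* = 0.115), which was called under quantile normalization (0.0152), at 0.37 with median-centring (0.0124) and without library 15 (0.0456).

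*CDKN2A* and *CDKN2B* are neighbours on the minus strand of chromosome 9 (21967751 to 21995300 and 22002902 to 22009304 of GRCh37), 7601 bases apart in the annotation. The *CDKN2A* value sums transcripts for p16INK4A and for p14ARF, which activates p53, and the genes are similar in sequence, so how reads were split between them is uncertain. *CDKN2B* rose with *N1ICD* in H82 and H69 and with TAS1440 in COR-L88. In H82 it went from 0.36, 0.22 and 0.26 to 2.13, 1.46 and 1.84 (1.53, SE 0.17, adjusted *P* = 1.06e-06), with *STING* KO from 0.54, 0.39 and 0.43 to 2.34, 1.81 and 2.25 (1.68, SE 0.17, adjusted *P* = 5.01e-07), and with *REST* KO from 0.36, 0.27 and 0.37 to 0.68, 0.99 and 1.16 (0.61, SE 0.17, adjusted *P* = 0.00703). The *REST* KO response was smaller than that of intact cells by −0.92 (SE 0.25, adjusted *P* = 0.0151), and under quantile normalization the rise with *REST* KO was no longer called (adjusted *P* = 0.991). *CDKN1A* and *CDKN2B* thus differed in opposite directions between induced *REST* KO and induced intact cells, by 1.54 (SE 0.27, adjusted *P* = 0.000256) and −0.87 (SE 0.17, adjusted *P* = 0.000836).

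H69 cells had the highest *CDKN2B* values of the untreated lines, 1.50 to 1.64, followed by COR-L88 with 0.98 to 1.13 and by H524 (0.44 to 0.66) and H82 (0.21 to 0.51), whose ranges overlapped. *N1ICD* in H69 raised it from 2.13, 1.53 and 1.71 to 4.27, 4.29 and 4.40 (2.53, SE 0.14, adjusted *P* = 3.09e-07), the highest values of the gene in any group. H524 stayed low, with 0.58, 0.42 and 0.40 without and 0.72, 0.83 and 0.71 with doxycycline, groups that did not overlap, and without the filter on low values this difference was 0.29 (adjusted *P* = 0.0169). In COR-L88, TAS1440 raised *CDKN2B* from 0.98, 1.13 and 1.00 to 3.59, 3.64 and 3.75 (2.62, SE 0.25, adjusted *P* = 1.12e-06). With GSI it was 1.18, 1.11 and 0.97, lower than with TAS1440 alone by −2.57 (SE 0.25, adjusted *P* = 5.08e-06) and 0.05 from DMSO (SE 0.25, adjusted *P* = 0.917). In this line, therefore, *CDKN2B* was lower with GSI than with TAS1440 alone, while *CDKN1A* with GSI stayed above DMSO. *STING* KO cells with TAS1440 had 2.83, 3.98 and 2.65 (2.19 above their DMSO, SE 0.25, adjusted *P* = 1e-05). Against intact cells with TAS1440 this was −0.51 (SE 0.25, adjusted *P* = 0.142), and library 44, the highest, decided that: without it the difference was −0.92 (adjusted *P* = 8.43e-05) and the response differed from that of intact cells by −0.85 (adjusted *P* = 0.00301). *Cdkn2b* stayed between 0.00 and 0.29 in all KP1 libraries.

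*CDKN2A* was at 2.84 or more in every human library. Untreated H524 (4.98 to 6.10) and H69 (5.19 to 5.29) overlapped, above COR-L88 (4.50 to 4.77) and H82 (2.84 to 3.61). It rose with *N1ICD* in H69, from 5.30, 4.90 and 5.08 to 6.37, 6.39 and 6.41 (1.30, SE 0.09, adjusted *P* = 1.83e-06), and with TAS1440 in COR-L88, from 4.77, 4.50 and 4.68 to 5.73, 5.61 and 5.86 (1.08, SE 0.16, adjusted *P* = 8.03e-05). GSI brought the latter to 5.02, 4.84 and 4.88 (−0.82 against TAS1440 alone, SE 0.16, adjusted *P* = 0.00117). KP1 followed the same course, with *Cdkn2a* at 3.11, 3.28 and 3.55 with DMSO, 4.82, 4.65 and 5.37 with TAS1440 (1.63, SE 0.26, adjusted *P* = 0.00103) and 2.67, 3.31 and 3.40 with GSI added (−1.82 against TAS1440 alone, SE 0.26, adjusted *P* = 0.000625). In COR-L88 *STING* KO cells TAS1440 raised it as well, from 5.38, 4.69 and 5.26 to 6.00, 6.32 and 5.95 (0.98, SE 0.16, adjusted *P* = 0.000296), and the difference of responses was −0.10 (SE 0.23, adjusted *P* = 0.817). In H82 induction did not pass (−0.25, SE 0.18, adjusted *P* = 0.247), but both KO lines lay above intact cells: without doxycycline by 1.19 for *REST* KO (SE 0.18, adjusted *P* = 0.000312) and 1.09 for *STING* KO (SE 0.18, adjusted *P* = 0.000181), and with it by 1.05 (SE 0.18, adjusted *P* = 0.000182) and 1.32 (SE 0.18, adjusted *P* = 3.04e-05). Uninduced H82 N1ICD cells were themselves above parental cells by 0.72 (SE 0.18, adjusted *P* = 0.0124), which was lost without library 3 or 6 (0.0828 and 0.0587) and with those groups alone (0.198). H524 gave −0.45 with *N1ICD* (SE 0.24, adjusted *P* = 0.18).

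*CDKN2C*, the gene for p18 (chromosome 1, 51426417 to 51440306 of GRCh37), fell with *N1ICD* in H82 and H69 and with TAS1440 in COR-L88. It had the highest mean of the 9 genes in all 20 human groups, subject to the limit on levels between genes given above, and the ranges of untreated H524 (8.54 to 9.74) and H69 (8.80 to 8.98) overlapped, above COR-L88 (7.84 to 8.31) and H82 (5.72 to 6.24). Induction in H82 lowered it from 7.21, 7.34 and 6.84 to 4.71, 5.10 and 5.04 (−2.18, SE 0.34, adjusted *P* = 3.98e-05). The uninduced cells stood 1.19 above parental ones (SE 0.34, adjusted *P* = 0.0271; lost without library 2, 3 or 5 with 0.0685 to 0.115), and every induced library was also below every parental one. With *REST* KO it went from 6.38, 6.36 and 6.56 to 4.98, 5.34 and 5.90 (−1.02, SE 0.34, adjusted *P* = 0.0178), a call lost without library 30 or 31 (0.0526 and 0.0869). *STING* KO gave 6.91, 7.05 and 7.08 without and 4.47, 6.46 and 5.69 with doxycycline (−1.47, SE 0.34, adjusted *P* = 0.00226; −0.94 without library 58, the lowest, adjusted *P* = 0.0111). Without library 58, *STING* KO also differed from intact cells, by 1.12 with doxycycline (adjusted *P* = 0.00371) and by 1.24 in response (adjusted *P* = 0.0339). In H69 the fall was from 8.83, 8.71 and 8.91 to 7.96, 8.09 and 8.11 (−0.76, SE 0.08, adjusted *P* = 1.72e-05). H524 had 7.59, 7.84 and 8.04 without and 6.72, 7.05 and 7.58 with *N1ICD*, groups that met at the edge without overlapping, and the difference of −0.71 (SE 0.37) did not pass (adjusted *P* = 0.17). Uninduced H524 N1ICD cells were already below parental cells by −1.21 (SE 0.37, adjusted *P* = 0.0293), a call lost without library 20 or 22 (0.117 and 0.0865) and with those groups alone (0.0872). Induced N1ICD cells were below induced *REST* cells, which had 9.09, 9.02 and 8.81 (−1.85, SE 0.37, adjusted *P* = 0.00125).

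In COR-L88, *CDKN2C* was 8.31, 7.98 and 7.84 with DMSO, 6.83, 7.37 and 7.56 with TAS1440 and 8.13, 7.82 and 8.02 with GSI added. The fall with TAS1440 was −0.79 (SE 0.24, adjusted *P* = 0.0137; lost without library 10 or 13 with 0.0573 and 0.0664), and GSI differed from TAS1440 alone by 0.74 (SE 0.24, adjusted *P* = 0.0243; lost without library 13, 16 or 18 with 0.0629 to 0.107). *STING* KO cells with TAS1440 lay above intact ones by 0.84 (SE 0.24, adjusted *P* = 0.0224; lost without library 13, 43 or 45 with 0.0714 to 0.0929 and with those groups alone with 0.0502). In KP1, *Cdkn2c* was between 3.87 and 5.15 in all libraries and was called in no comparison.

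*CCND1* (chromosome 11, 69455924 to 69469242 of GRCh37), the gene for cyclin D1, was nearly silent in some lines and high in others. Parental H524 cells held 5.08, 3.68 and 5.17, parental H69 cells 2.71, 2.81 and 2.78, and COR-L88 cells with DMSO (0.10, 0.13 and 0.05) and parental H82 cells (0.12, 0.03 and 0.00) were near 0 with overlapping ranges. TAS1440 raised it in COR-L88 to 2.68, 2.41 and 1.73 (2.19, SE 0.20, adjusted *P* = 9.88e-07), and with GSI added it was 1.39, 0.87 and 1.26, between both groups and apart from each (1.09 above DMSO, SE 0.20, adjusted *P* = 0.00134; −1.10 against TAS1440 alone, SE 0.20, adjusted *P* = 0.00065). *STING* KO cells reached 0.54, 0.33 and 0.65 with TAS1440 from 0.10, 0.12 and 0.02, with no overlap but a difference that did not pass (0.43, SE 0.20, adjusted *P* = 0.106; called with 0.1 added in place of 1, adjusted *P* = 0.00232). The response of *STING* KO cells was below that of intact cells by −1.76 (SE 0.29, adjusted *P* = 0.00423), the one call among the 8 genes tested. With TAS1440 the *STING* KO cells held more *NOTCH1* RNA, 2.82 to 4.93 against 1.99 to 2.79 in intact cells, whose part was not tested. For *CCND3* the difference of responses was −1.13 (SE 0.37, adjusted *P* = 0.0806; called without library 41 or 44, 0.0265 and 0.0392).

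Cyclin D1 mRNA gave the largest difference of KP1 cells among the 9 genes. *Ccnd1* was 0.21, 0.13 and 0.01 with DMSO, 3.85, 5.17 and 4.25 with TAS1440 (4.31, SE 0.28, adjusted *P* = 5.84e-06) and 0.01, 0.01 and 0.02 with TAS1440 plus GSI (−4.41 against TAS1440 alone, SE 0.28, adjusted *P* = 7.22e-06). With GSI added, *Ccnd1* in KP1 was thus no higher than 0.02, while *CCND1* in COR-L88 stayed above every DMSO library. The GSI compound and dose differed between these lines, so that line and compound cannot be told apart here. With *N1ICD* the human lines varied. H524 went from 5.01, 3.91 and 4.72 to 3.87, 2.94 and 3.61 (−1.07, SE 0.44, adjusted *P* = 0.0783; called at −1.18 with median-centred libraries, adjusted *P* = 0.0477, and at −1.39 without library 23, adjusted *P* = 0.0328). Induced H524 N1ICD cells were below induced *REST* cells, which had 4.74, 5.61 and 4.93 (−1.62, SE 0.44, adjusted *P* = 0.00879). H69 went from 2.90, 1.67 and 2.31 to 2.84, 2.70 and 2.63 (0.43, SE 0.26, adjusted *P* = 0.148; called at 0.73 without library 49, adjusted *P* = 0.00402). In H82, where the gene was not tested, it was 0.02 to 0.10 without and 0.27 to 0.57 with doxycycline, and with *REST* KO 0.00 to 0.03 and 0.90 to 1.65. Without the filter on low values the latter difference was 1.29 (adjusted *P* = 2.29e-06) and that in intact cells 0.34 (adjusted *P* = 0.0731).

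*CCND2* (chromosome 12, 4378937 to 4414519 of GRCh37), the gene for cyclin D2, had another distribution over untreated lines: H82 held 4.50, 4.12 and 3.98, H524 2.82, 3.20 and 1.87, H69 0.07, 0.09 and 0.05, and COR-L88 0.00, 0.00 and 0.01. *N1ICD* raised it in H69 from 1.11, 0.12 and 0.09 to 2.94, 2.93 and 2.88 (2.47, SE 0.24, adjusted *P* = 1.29e-05). The value of 1.11 was that of library 49, which also had the lowest *CDKN1A* (5.75) and the highest *REST* (1.34) of the uninduced H69 cells. Intact H82 cells went from 2.70, 3.91 and 4.25 to 3.21, 2.31 and 3.13 (−0.74, SE 0.32, adjusted *P* = 0.0665), a difference that was called without library 4, the lowest uninduced one (−1.20, adjusted *P* = 0.0015), and under quantile normalization (0.0353) and median-centring (0.0449). *STING* KO cells rose from 1.73, 1.35 and 1.06 to 3.12, 2.86 and 2.98 (1.61, SE 0.32, adjusted *P* = 0.000725), and the responses differed by 2.34 (SE 0.46, adjusted *P* = 0.0034). The induced cells of both had similar values (0.11 apart, SE 0.32, 95% interval −0.57 to 0.79), and the uninduced cells differed by −2.24 (SE 0.32, adjusted *P* = 5.87e-05). *REST* KO cells had 2.74, 2.51 and 2.43 without and 3.24, 3.33 and 2.65 with doxycycline (0.51, SE 0.32, adjusted *P* = 0.194), and their response differed from that of intact cells by 1.25 (SE 0.46, adjusted *P* = 0.0712; called without library 4 or 33, 0.00374 and 0.0482). Without doxycycline they were below intact cells by −1.06 (SE 0.32, adjusted *P* = 0.0346), which was lost without library 5, 6, 28, 29 or 30 (0.0659 to 0.145), without the filter (0.0559) and with those groups alone (0.135).

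*Ccnd2* in KP1 was listed at 0 in all 3 DMSO libraries, at 2.84, 4.04 and 3.47 with TAS1440 and at 0.00, 0.00 and 0.01 with GSI added. TAS1440 differed from DMSO (adjusted *P* = 9.23e-06) and from TAS1440 plus GSI (adjusted *P* = 1.21e-05), and no fold is given against a group at 0. COR-L88, the human line given the same inhibitor, stayed at 0.00 to 0.07 in all 15 libraries. H524 gave no call for *CCND2*, with 1.20, 2.40 and 1.87 without and 2.15, 1.95 and 2.41 with *N1ICD*.

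**Figure D2:**
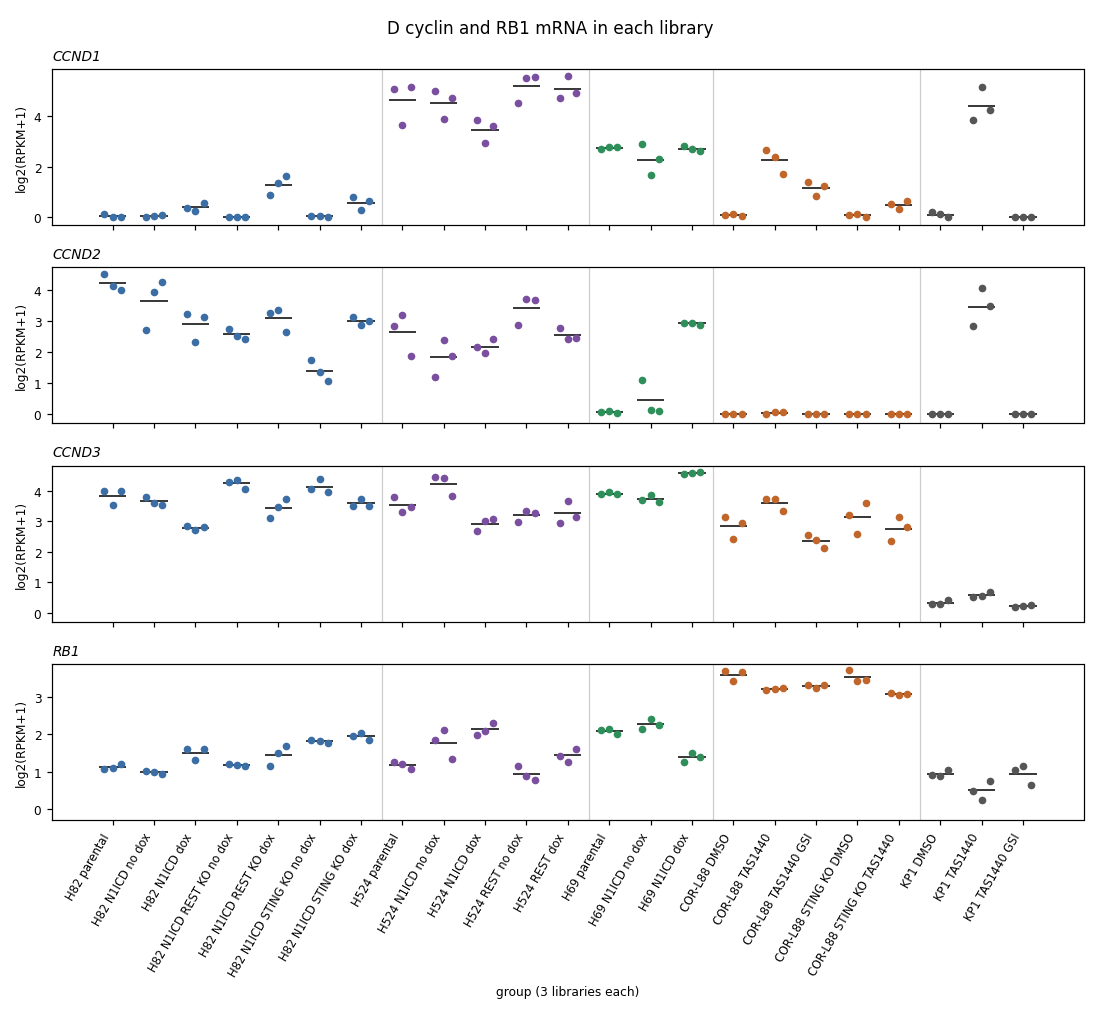
Log2(RPKM + 1) of the 3 D cyclins and *RB1* in each library (points, colored by line) of the 23 groups, with the group mean as a black bar; KP1 values are of the mouse genes from a separate table. *CCND1* and *CCND2* rose from near 0 to at least 2.84 in every KP1 library with TAS1440 and were at 0.02 or below with GSI added, and *CCND1* in COR-L88 with TAS1440 was 1.73 to 2.68 in intact and 0.33 to 0.65 in *STING* KO cells.

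*CCND3* (chromosome 6, 41902672 to 42018095 of GRCh37), the gene for cyclin D3, differed less between untreated lines: H69 had 3.89 to 3.95, H82 3.53 to 4.00, H524 3.31 to 3.80 and COR-L88 2.42 to 3.15, and each range but the last overlapped its neighbour. *N1ICD* lowered it in H82 from 3.80, 3.61 and 3.55 to 2.84, 2.71 and 2.82 (−0.86, SE 0.18, adjusted *P* = 0.000655) and in H524 from 4.46, 4.42 and 3.82 to 2.68, 3.02 and 3.06 (−1.31, SE 0.23, adjusted *P* = 0.000594). In H69 it raised it from 3.71, 3.87 and 3.64 to 4.56, 4.57 and 4.61 (0.84, SE 0.07, adjusted *P* = 4.1e-06). None of these 3 pairs of groups overlapped. Uninduced H524 N1ICD cells were above parental cells by 0.71 (SE 0.23, adjusted *P* = 0.0375), a call lost without library 20, 21, 22 or 23 (0.0736 to 0.115) and with those groups alone (0.171). The *REST* vector in H524 gave 0.07 (SE 0.23, adjusted *P* = 0.913), which differed from the *N1ICD* response by −1.39 (SE 0.33, adjusted *P* = 0.00873). In H82 with *REST* KO the gene fell by 0.81 (SE 0.18, adjusted *P* = 0.00113), and with *STING* KO by 0.55 (SE 0.18, adjusted *P* = 0.0231), lost without library 56, 58 or 60 (0.0708 to 0.121).

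Both H82 KO lines lay above intact cells in *CCND3*: by 0.65 with *REST* KO (SE 0.18, adjusted *P* = 0.00866; 0.0514 with those groups alone) and 0.80 with *STING* KO (SE 0.18, adjusted *P* = 0.00215) under doxycycline, and by 0.59 (SE 0.18, adjusted *P* = 0.0338) and 0.48 (SE 0.18, adjusted *P* = 0.0467) without it. The calls without doxycycline were lost without library 5, 6, 28 or 29 for *REST* KO (0.081 to 0.116), without library 5, 6, 55 or 56 for *STING* KO (0.0757 to 0.204), and with those groups alone (0.0519 and 0.0876). In COR-L88, *CCND3* was 3.15, 2.42 and 2.96 with DMSO, 3.74, 3.73 and 3.33 with TAS1440 and 2.55, 2.39 and 2.13 with GSI added. The rise with TAS1440 was 0.76 (SE 0.26, adjusted *P* = 0.0248), lost without library 11, 13 or 14 (0.0718 to 0.116), under quantile normalization (0.057) and under median-centring (0.0506). GSI lowered it by 1.24 from TAS1440 alone (SE 0.26, adjusted *P* = 0.00179). *STING* KO cells with TAS1440, at 2.36, 3.13 and 2.80, were below intact ones by −0.84 (SE 0.26, adjusted *P* = 0.0318), lost without library 13, 14, 43 or 45 (0.0708 to 0.141) and under both normalizations (0.0538 and 0.0571). *Ccnd3* in KP1 was 0.28 to 0.43 with DMSO, 0.51 to 0.68 with TAS1440 and 0.19 to 0.27 with GSI, below the level needed for the test.

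In KP1, where *Timm44* did not stand out, the D cyclins were set against each other per length. Their summed RPKM was 0.329 to 0.367 with DMSO, 20.0 to 50.9 with TAS1440 and 0.149 to 0.226 with GSI added. With TAS1440 *Ccnd1* made up 62.8% to 68.7%, *Ccnd2* 30.4% to 35.1% and *Ccnd3* 0.907% to 2.12% of this sum, whereas *Ccnd3* made up 57.8% to 98.0% with DMSO and 91.5% to 96.5% with GSI. Among the 9 genes in DMSO the order was *Cdkn1b*, *Cdkn2c*, *Cdkn2a*, *Cdkn1a*, *Rb1* and *Ccnd3*, with no overlap between neighbours, and then *Ccnd1* and *Cdkn2b*, whose ranges overlapped, and *Ccnd2* at 0. TAS1440 moved *Ccnd1* and *Ccnd2* above *Cdkn1a* in every library.

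*RB1* (chromosome 13, 48877880 to 49173572 of GRCh37) was highest in COR-L88, at 3.42 to 3.68 with DMSO, followed by H69 at 2.01 to 2.15 and by H524 (1.07 to 1.26) and H82 (1.07 to 1.21), which overlapped. It fell with *N1ICD* in H69, from 2.13, 2.42 and 2.26 to 1.25, 1.49 and 1.40 (−0.89, SE 0.10, adjusted *P* = 2.69e-05), and rose slightly in H82, from 1.01, 1.00 and 0.94 to 1.60, 1.32 and 1.61 (0.53, SE 0.14, adjusted *P* = 0.00356; 0.275 under quantile normalization). With *STING* KO it was higher than in intact H82 cells, by 0.84 without (SE 0.14, adjusted *P* = 0.000167) and by 0.44 with doxycycline (SE 0.14, adjusted *P* = 0.0168), the latter lost without library 8 or 59 (0.0794 and 0.0595) and with those groups alone (0.0669). In H524 it was 1.85, 2.13 and 1.35 without and 2.00, 2.10 and 2.31 with *N1ICD* (0.36, SE 0.19, adjusted *P* = 0.172; called at 0.54 without library 23, adjusted *P* = 0.0389), and induced N1ICD cells were above induced *REST* cells by 0.70 (SE 0.19, adjusted *P* = 0.00943). Uninduced H524 N1ICD cells were above parental ones by 0.60 (SE 0.19, adjusted *P* = 0.035), lost without library 19, 20, 21, 22 or 23 (0.0606 to 0.102) and with those groups alone (0.188). TAS1440 lowered *RB1* in COR-L88 from 3.68, 3.42 and 3.66 to 3.19, 3.22 and 3.24 (−0.37, SE 0.10, adjusted *P* = 0.00603) and in *STING* KO cells from 3.71, 3.42 and 3.45 to 3.12, 3.04 and 3.07 (−0.45, SE 0.10, adjusted *P* = 0.00234). GSI left it at 3.33, 3.24 and 3.32 (−0.29 against DMSO, SE 0.10, adjusted *P* = 0.0488), a call lost without library 10, 12, 16, 17 or 18 (0.0921 to 0.158), with those groups alone (0.0697) and without a variance trend (0.0531). *Rb1* mRNA, from the mutant gene of KP1, was 0.91, 0.88 and 1.05 with DMSO and 0.48, 0.25 and 0.76 with TAS1440 (−0.45, SE 0.17, adjusted *P* = 0.0635; called with median-centring, 0.049, with those groups alone, 0.0479, and without library 6, 0.0247).

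**Figure D3:**
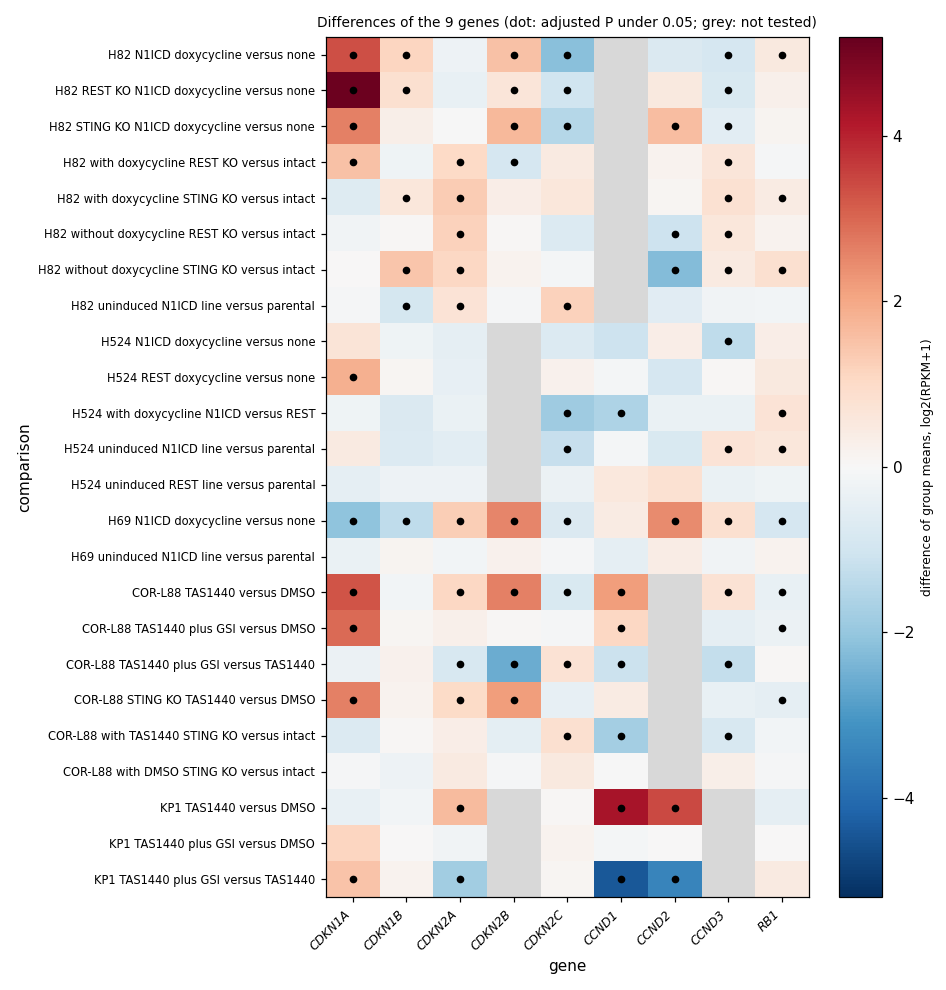
Differences of group means in log2(RPKM + 1) for the 9 genes (columns, mouse genes under their human names) in the 24 comparisons (rows), red for higher and blue for lower in the group named first; a dot marks an adjusted *P* below 0.05 and grey a gene that was not tested. *CDKN1A* spans 5.09 in H82 *REST* KO cells to −2.09 in H69, and the TAS1440 and GSI comparisons of KP1 carry *CCND1* and *CCND2* at opposite signs.

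Counted over the genes, calls were read against the share of all tested genes that passed, which was large in most comparisons. In H82 induction changed 6 of 8 genes tested, with 4 higher and 2 lower, beside 50.3% of all genes, 5 of 8 with *REST* KO (52.2%) and 5 of 8 with *STING* KO (37.8%). Between KO and intact H82 cells, 4 of 8 differed for *REST* (38.4%) and 4 of 8 for *STING* (39.2%) with doxycycline, and 3 of 8 (15.2%) and 5 of 8 (34.6%) without it. In the *STING* KO comparison without doxycycline the median of all genes itself stood at −0.11. Uninduced against parental H82 cells gave 3 of 8 (13.7%). These comparisons share groups and are not independent. H524 had 1 of 8 with *N1ICD* (32.3%), 1 of 8 with *REST* (2.83%), 3 of 8 between induced N1ICD and *REST* cells (42.8%), 3 of 8 for uninduced N1ICD (26.6%) and 0 of 8 for uninduced *REST* cells (0.3%) against parental cells, where the lowest adjusted *P* of the 8 was 0.508. In H69 8 of 9 differed with *N1ICD* (82.3%) and 0 of 9 between uninduced and parental cells (27.4%). COR-L88 had 7 of 8 with TAS1440 (57.7%), 3 of 8 with TAS1440 plus GSI against DMSO (24.5%), 5 of 8 between TAS1440 with and without GSI (46.7%), 4 of 8 with TAS1440 in *STING* KO cells (43.3%), 3 of 8 between *STING* KO and intact cells with TAS1440 (27.1%) and 0 of 8 with DMSO (5.41%). KP1 had 3 of 7 with TAS1440 (36.7%), 0 of 7 with TAS1440 plus GSI against DMSO (1.97%) and 4 of 7 between TAS1440 with and without GSI (32%). Each share of the members rests on 7 to 9 genes. In H82, COR-L88 and KP1 these include genes that entered the tests only through groups in which they were high.

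Differences between responses were tested directly. The *N1ICD* response of H69 and H82 differed in 8 of 9 genes (60.6% of all genes), that of H524 and H82 in 6 of 9 (32.4%) and that of H69 and H524 in 8 of 9 (54.8%). The size of the gap was greatest for *CDKN1A*, −5.44 between H69 and H82 (SE 0.46, adjusted *P* = 8.25e-14). For *CDKN1A*, *CDKN1B*, *CCND3* and *RB1* the H82 and H69 responses were called in opposite directions, for *CDKN2B* both were higher and for *CDKN2C* both were lower. Within H82, 2 of 8 responses differed with *REST* KO (16.6%) and 2 of 8 with *STING* KO (9.26%). In H524 1 of 8 differed between *N1ICD* and *REST* (19.1%), and in COR-L88 1 of 8 with *STING* KO (7.93%).

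**Figure D4:**
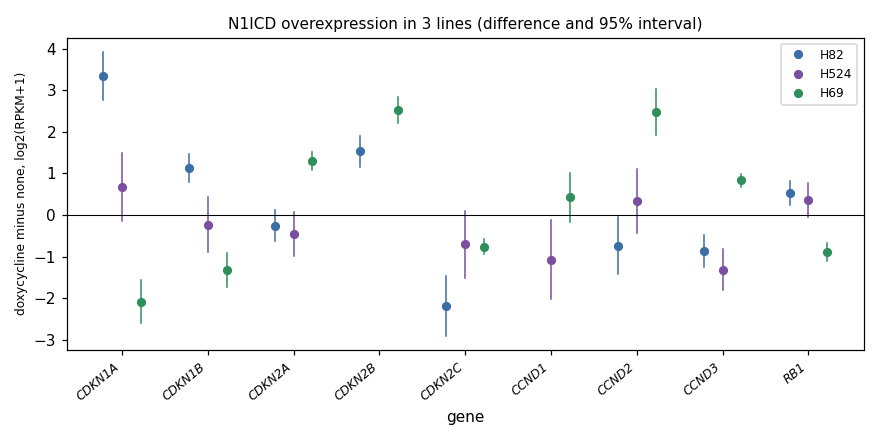
Difference between induced and uninduced N1ICD cells in log2(RPKM + 1) for each gene, with its 95% interval from limma, in H82 (blue), H524 (purple) and H69 (green); *CCND1* was not tested in H82 and *CDKN2B* not in H524. *CDKN1A*, *CDKN1B* and *RB1* lie above 0 in H82 and below 0 in H69, and *CCND3* lies below 0 in H82 and H524 and above 0 in H69.

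Genes that act beside and after these 9 were counted in the same comparisons, to be read against the share of all genes tested that moved in each direction. Of all genes, 25.4% rose and 24.9% fell in H82 with *N1ICD*, 17.9% and 14.4% in H524, and 44.1% and 38.3% in H69. With TAS1440, 31.1% rose and 26.6% fell in COR-L88, and 18.2% and 18.5% in KP1. Among 11 proliferation genes driven by E2F, induction lowered 8 in H82 and 7 in H524 and raised none (medians −0.86 and −0.47, beside −0.0026 and −0.0181 over all genes). The largest falls were those of *MKI67*, a proliferation marker, in H82 (−1.77, SE 0.57, adjusted *P* = 0.0157) and of *RRM2*, a ribonucleotide reductase subunit, in H524 (−1.50, SE 0.26, adjusted *P* = 0.000468). *RRM2* fell in H82 as well (−1.66, SE 0.43, adjusted *P* = 0.00392), and *MKI67* in H524 (−1.24, SE 0.23, adjusted *P* = 0.00106). With *REST* KO 5 of 11 fell, beside 26.2% of all genes, and with *STING* KO 1 of 11, beside 16.9%, none rising. H69 was mixed, with 3 higher and 7 lower (median −0.33 beside 0.08), led by *MCM6* (0.33, SE 0.06, adjusted *P* = 0.000497) and *RRM2* (0.29, SE 0.07, adjusted *P* = 0.00308) upward and by the replication factors *MCM3* (−1.25, SE 0.05, adjusted *P* = 7.3e-08) and *PCNA* (−0.86, SE 0.06, adjusted *P* = 1.89e-06) downward. TAS1440 in COR-L88 lowered 4 of 11 (median −0.29), among them *TOP2A* (−1.89, SE 0.22, adjusted *P* = 8.21e-06) and *RRM2* (−1.42, SE 0.27, adjusted *P* = 0.00051), and with GSI 5 of 11 were higher than with TAS1440 alone, beside 19% of all genes. In KP1 1 of 11 rose, *Mcm4* (0.62, SE 0.21, adjusted *P* = 0.0435), and none fell.

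Of 10 E2F and DP factors tested, 1 rose and 2 fell in H82, 1 and 3 in H524, 4 and 5 in H69, and 0 and 6 in COR-L88 with TAS1440, and of 8 in KP1 0 rose and 1 fell. The share that fell was below that of all genes in H82 (24.9%) and KP1 (18.5%) and above it in H524 (14.4%), H69 (38.3%) and COR-L88 (26.6%). *E2F1*, an activator of S-phase genes, fell by 1.22 in H82 (SE 0.24, adjusted *P* = 0.00045), 1.09 in H524 (SE 0.17, adjusted *P* = 0.000221), 2.09 in H69 (SE 0.05, adjusted *P* = 3.02e-09) and 1.16 in COR-L88 (SE 0.15, adjusted *P* = 2.38e-05). *E2F2* fell in H82 (−1.40, SE 0.48, adjusted *P* = 0.0206), H524 (−0.82, SE 0.23, adjusted *P* = 0.014) and COR-L88 (−1.13, SE 0.18, adjusted *P* = 0.000104) and, as *E2f2*, in KP1 (−1.94, SE 0.24, adjusted *P* = 0.000237), and *E2F7* fell in H69 (−1.07, SE 0.09, adjusted *P* = 6.6e-06). The genes that rose included *E2F4*, which binds RB family proteins, in H82 (0.72, SE 0.24, adjusted *P* = 0.0186) and H69 (1.82, SE 0.17, adjusted *P* = 1.04e-05), *E2F3* in H69 (1.06, SE 0.11, adjusted *P* = 1.72e-05) and *TFDP2* in H524 (0.83, SE 0.22, adjusted *P* = 0.0112).

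Among 8 CDKs and later cyclins, *CDK6*, the partner of D cyclins, rose in H82 (0.81, SE 0.26, adjusted *P* = 0.0162), and with TAS1440 in COR-L88 (3.81, SE 0.30, adjusted *P* = 2.1e-07) and KP1 (3.32, SE 0.53, adjusted *P* = 0.000992). In the 5 comparisons of *N1ICD* induction or TAS1440 with intact cells, 1 of 8 rose and 2 fell in H82, 0 and 1 in H524, 4 and 2 in H69, 3 and 3 in COR-L88, and 1 and 1 in KP1. Of all genes, 25.4% rose and 24.9% fell in H82, 17.9% and 14.4% in H524, 44.1% and 38.3% in H69, 31.1% and 26.6% in COR-L88, and 18.2% and 18.5% in KP1. *CDK1* and *CCNA2*, which act in S phase and mitosis, fell in H82 (−1.18, SE 0.43, adjusted *P* = 0.0296, and −1.45, SE 0.43, adjusted *P* = 0.00887) and COR-L88 (−1.02, SE 0.19, adjusted *P* = 0.000542, and −0.94, SE 0.18, adjusted *P* = 0.00057), whereas *CCNA2* rose in H69 (0.81, SE 0.12, adjusted *P* = 0.000275), together with *CDK4* (0.79, SE 0.05, adjusted *P* = 7.66e-07). *CCNE2* fell in H524 (−1.46, SE 0.40, adjusted *P* = 0.0132), H69 (−1.91, SE 0.09, adjusted *P* = 1.63e-07) and KP1 (−1.04, SE 0.34, adjusted *P* = 0.0389), *CDK2* fell in H69 (−0.45, SE 0.06, adjusted *P* = 0.000101) and *CCNE1* rose in COR-L88 (1.75, SE 0.18, adjusted *P* = 3.15e-06).

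Of the remaining CDK inhibitors and RB family genes, 2 of 4 rose in H82, 1 of 4 in H524, 2 rose and 2 fell of 4 in H69, 2 of 3 fell in COR-L88 and 1 of 2 fell in KP1. All 4 were called in H69, where 82.3% of all genes were. Beside the other counts, 25.4% of all genes rose in H82 and 17.9% in H524, and 26.6% fell in COR-L88 and 18.5% in KP1. Each count rests on 2 to 4 genes. *CDKN2D*, the fourth INK4 gene, fell in H69 (−2.35, SE 0.07, adjusted *P* = 7.55e-09) and COR-L88 (−2.47, SE 0.11, adjusted *P* = 2.44e-09), as *CDKN2C* did. *CDKN1C*, the third CIP/KIP gene, rose in H82 (0.89, SE 0.31, adjusted *P* = 0.0253) and fell in H69 (−1.74, SE 0.09, adjusted *P* = 2.1e-07) and KP1 (−1.88, SE 0.28, adjusted *P* = 0.000612). *RBL1*, a relative of *RB1*, rose in H82 (0.52, SE 0.16, adjusted *P* = 0.0122), H524 (0.63, SE 0.15, adjusted *P* = 0.00644) and H69 (1.05, SE 0.08, adjusted *P* = 2.26e-06) and fell in COR-L88 (−0.45, SE 0.12, adjusted *P* = 0.00558), and *RBL2* rose in H69 (0.33, SE 0.07, adjusted *P* = 0.00138).

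Of 10 other target genes of p53 tested, 2 rose and 2 fell in H82 (median −0.25), 4 rose and 0 fell in H524, 4 rose and 4 fell in H69, and 4 rose and 1 fell in COR-L88 with TAS1440, and of 8 in KP1 1 rose and 2 fell. Of all genes, 25.4% rose and 24.9% fell in H82, 17.9% and 14.4% in H524, 44.1% and 38.3% in H69, 31.1% and 26.6% in COR-L88, and 18.2% and 18.5% in KP1. *PHLDA3*, an inhibitor of AKT, rose in all 5 comparisons: by 3.58 in H82 (SE 0.27, adjusted *P* = 6.92e-09), 3.24 in H524 (SE 0.17, adjusted *P* = 5.85e-09), 3.41 in H69 (SE 0.20, adjusted *P* = 4.58e-07), 2.38 in COR-L88 (SE 0.26, adjusted *P* = 4.88e-06) and 2.09 in KP1 (SE 0.32, adjusted *P* = 0.000789). The death receptor gene *FAS* rose by 2.24 in H82 (SE 0.21, adjusted *P* = 1.16e-07), 2.09 in H524 (SE 0.20, adjusted *P* = 2e-06), 3.74 in H69 (SE 0.11, adjusted *P* = 7.47e-09) and 3.15 in COR-L88 (SE 0.30, adjusted *P* = 1.26e-06). Among those that fell were *SESN1* in H82 (−1.99, SE 0.14, adjusted *P* = 2.11e-09) and H69 (−2.06, SE 0.12, adjusted *P* = 5.23e-07), *BAX* in H82 (−0.82, SE 0.18, adjusted *P* = 0.000865), *GADD45A* in H69 (−1.89, SE 0.13, adjusted *P* = 1.65e-06), *MDM2* in COR-L88 (−0.60, SE 0.15, adjusted *P* = 0.00435), and *Btg2* (−1.94, SE 0.35, adjusted *P* = 0.00218) and *Fdxr* (−0.57, SE 0.14, adjusted *P* = 0.0114) in KP1. *PHLDA3* and *FAS* thus rose in H69, where *CDKN1A* fell.

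Neuroendocrine markers fell in the same comparisons, 5 of 5 tested in H82, 5 of 6 in H524, 5 of 6 in H69 and 5 of 6 in COR-L88, and 4 of 4 in KP1, beside 24.9%, 14.4%, 38.3%, 26.6% and 18.5% of all genes. *NEUROD1*, a neuroendocrine transcription factor gene, fell in H82 (−9.10, SE 0.76, adjusted *P* = 1.93e-08), H524 (−4.36, SE 0.42, adjusted *P* = 2.56e-06) and H69 (listed at 0.00 in induced cells from a mean of 9.39, adjusted *P* = 5.76e-07). Parental H69 cells held less of it than uninduced N1ICD cells, 3.32 to 5.03. In COR-L88 it did not fall, at 5.56 to 5.75 with DMSO and 5.87 to 6.51 with TAS1440. *SYP* fell in H82 (−5.97, SE 0.23, adjusted *P* = 8.86e-13), *Chga* in KP1 (−5.54, SE 0.71, adjusted *P* = 0.000272), and *INSM1* in H524 (−3.03, SE 0.35, adjusted *P* = 1.33e-05), H69 (−8.34, SE 0.08, adjusted *P* = 1.7e-11) and COR-L88 (−4.79, SE 0.25, adjusted *P* = 5.86e-09). The KP1 libraries with TAS1440 were unequal, with *Chga* at 0.01, 1.28 and 2.82 and *Insm1* at 0.17, 2.14 and 4.73. Their lowest pairwise correlation, 0.902, was the lowest of any group, and all KP1 results with TAS1440 rest on these libraries.

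The genes whose pattern was most like that of each of the 9 were found over the 20 human group means, with the mean of each line removed, among 11301 genes that passed the filter in all 4 human lines. The means of a line share controls and normalization, so that these correlations are descriptive. *CDKN1A* was most like *HRK* (Pearson's r = 0.90), *PHLDA1* (0.89) and *EFHD1* (0.89), *CDKN1B* like *ZNF117* (0.88), *DUSP4* (0.83) and *PDE4DIP* (0.83), and *CDKN2A* like *MBOAT7* (0.89), *ST6GALNAC4* (0.89) and *MTSS1L* (0.85). *CDKN2B* was most like *HEATR5A* (0.92), *EHD1* (0.92) and *ARPC1B* (0.91), and *CDKN2C* like *MSI1* (0.91), *NDUFA7* (0.90) and *CORO1A* (0.89). *CCND1* was most like *RAI14* (0.79), *DOK4* (0.78) and *PHLPP2* (0.77), *CCND2* like *DDX27* (0.89), *SENP3* (0.87) and *USP24* (0.86), *CCND3* like *ATPIF1* (0.86), *IMPDH1* (0.83) and *CBR1* (0.81), and *RB1* like *THAP7-AS1* (0.90), *WDR34* (0.89) and *SAP30L* (0.88). Among the 9 themselves the highest correlations were those of *CDKN1A* with *CCND1* (0.55) and *CDKN2A* with *CDKN2B* (0.52), and the lowest those of *CCND2* with *RB1* (−0.70), *CDKN2B* with *CDKN2C* (−0.57) and *CDKN1A* with *CDKN2C* (−0.55).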

How the data were processed

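Bulk RNA-Seq of 69 libraries was processed by the authors with Cutadapt, STAR and RSEM, and edgeR's TMM factors scaled the libraries; the submitters' processing notes name the builds hg19 and mm10, and tool versions, annotation and gene lengths are not given in the sources used here. The authors deposited log2 values of RPKM + 1, in 1 human table and 1 KP1 table that were normalized separately, and comparisons stay within a table. Genes entered the test of a line when 3 or more of its libraries reached 1 on the log2 scale. Because the files hold log2 RPKM and no counts, limma 3.58.1 (R 4.3.3) was run on them with 1 mean per group, moderated variances with a trend, two-sided tests and Benjamini-Hochberg adjustment over all genes tested. Differences between responses of a line came from the same model, and those between lines from 1 model of all 60 human libraries.

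Read counts are not in the tables. From the steps between low values, library sizes ranged from 0.695 to 1.50 times the median in the human and from 0.871 to 1.06 in the KP1 table. On simulated data with 200 changed genes, 95% (H82, 13090 genes), 89% (H524, 13093), 98% (H69, 12832), 98% (COR-L88, 12663) and 87% (KP1, 7813) of changes of log2 size 2 were recovered, and 50%, 51%, 91%, 78% and 43% of those of size 1. Unchanged genes made up 3.33%, 4.11%, 2.07%, 7.85% and 7.14% of these calls, so that in COR-L88 and KP1 the share was above the nominal 5%. Changes were placed only in genes above a set mean level. Genes below it included *CDKN1A*, *CDKN2B* and *RB1* in H82, *CDKN1A* and *RB1* in H524, and *CCND2* and *RB1* in H69. They also included *CDKN2B* and *CCND1* in COR-L88 and *Cdkn1a*, *Ccnd1* and *Ccnd2* in KP1. Far fewer genes were changed than were called in the same comparisons of the real data. Recovery of low genes was therefore not measured, and the rates need not hold for the real data.

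The 9 genes, the lists and the tests were chosen with earlier results of these data known. Each of the 9 is named in full. From the other lists, up to 2 genes per direction with the largest called change are named in the 5 comparisons of *N1ICD* or TAS1440 in intact cells. One neuroendocrine marker is counted in its list and not reported here by name. *TIMM44* was named after its values were seen. Alternative settings added 0.1 in place of 1, dropped the filter, dropped the variance trend, fitted the compared groups alone, centred libraries on their medians, used quantile normalization, or left out each library in turn. Group means and correlations used Python 3.11.15, numpy 2.4.6 and pandas 2.3.3, and figures matplotlib 3.10.9. Positions are those of GENCODE on GRCh37 and promoter windows those of RefSeq on GRCh38.p14.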

Additional observations from a re-analysis of the deposited data

Results flagged for a closer look

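Responses that differed between lines or between intact and KO cells are given with the test of the difference itself, from limma with adjustment over all genes.

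Between H69 and H82 the *N1ICD* response of *CDKN1A* differed by −5.44 (SE 0.46, adjusted *P* = 8.25e-14), of *CDKN1B* by −2.45 (SE 0.29, adjusted *P* = 1.07e-09), of *RB1* by −1.42 (SE 0.19, adjusted *P* = 1.45e-08), of *CDKN2A* by 1.55 (SE 0.26, adjusted *P* = 2.12e-06), of *CDKN2B* by 1.00 (SE 0.26, adjusted *P* = 0.000845; −0.14 with 0.1 added in place of 1, adjusted *P* = 0.78), of *CDKN2C* by 1.42 (SE 0.45, adjusted *P* = 0.00646), of *CCND2* by 3.21 (SE 0.42, adjusted *P* = 8.55e-09) and of *CCND3* by 1.70 (SE 0.30, adjusted *P* = 4.35e-06). Here 60.6% of all genes tested differed.

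Between H524 and H82 the differences were −2.67 for *CDKN1A* (adjusted *P* = 9.64e-06), −1.36 for *CDKN1B* (0.000257), −1.24 for *CDKN2B* (0.00017), 1.47 for *CDKN2C* (0.00986), −1.41 for *CCND1* (0.00747) and 1.08 for *CCND2* (0.0415), the last of which was lost without library 5, 6, 8, 22, 24, 25 or 27 (0.0541 to 0.183), without the filter (0.0506), with 0.1 added in place of 1 (0.118), under quantile normalization (0.0594) and with those groups alone (0.244). Between H69 and H524 they were −2.77 for *CDKN1A* (2.12e-06), −1.09 for *CDKN1B* (0.00153), −1.25 for *RB1* (3.02e-07), 1.75 for *CDKN2A* (2.84e-07), 2.24 for *CDKN2B* (6.14e-10), 1.50 for *CCND1* (0.00233), 2.13 for *CCND2* (3.13e-05) and 2.15 for *CCND3* (5.96e-08). The lines also differed in induced *NOTCH1* and in starting levels of these genes, whose part was not tested.

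In H82 the response with *REST* KO differed from that of intact cells by 1.74 for *CDKN1A* (adjusted *P* = 0.00408) and −0.92 for *CDKN2B* (0.0151), and with *STING* KO by −0.84 for *CDKN1B* (0.025) and 2.34 for *CCND2* (0.0034). For *CDKN1B* and *CCND2* the uninduced *STING* KO cells already differed from intact ones, by 1.44 and −2.24. In H524 the *N1ICD* and *REST* responses of *CCND3* differed by −1.39 (0.00873), and in COR-L88 the TAS1440 response of *CCND1* differed by −1.76 with *STING* KO (0.00423), where DMSO values of both lines were 0.02 to 0.13. Cells labelled KO also held more *NOTCH1* RNA than intact ones once induced or treated with TAS1440, whose part was not tested.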

How the results depend on the processing

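Counts of calls among the 9 genes stayed within 1.5 times their value in 180 combinations of comparison and alternative and moved further in 6, apart from leaving out libraries. With only the compared groups in the model, uninduced against parental cells gave 1 call in H82 and 0 in the H524 N1ICD line, and the H82 *STING* KO difference of responses gave 1. Without the filter, *N1ICD* in H524 and its difference from the *REST* response gave 2 calls each, as did *N1ICD* in H524 with median-centred libraries. One called value reversed: the *CDKN2B* difference of responses between H69 and H82 was −0.14 (adjusted *P* = 0.78) with 0.1 added in place of 1, and the cause was not tested. With that pseudocount, called differences of low genes grew, as for *CDKN1A* in H82 from 3.35 to 5.41.

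Leaving out single libraries moved the count of calls as follows: H82 *REST* KO against intact without doxycycline 1 to 3, H82 uninduced against parental 1 to 3, H524 *N1ICD* 1 to 3, H524 *REST* 0 to 1, H524 uninduced N1ICD 0 to 3, H69 uninduced 0 to 2, COR-L88 *STING* KO against intact 1 to 4 with TAS1440 and 0 to 2 with DMSO, and differences of responses 1 to 3 for *STING* KO in H82, 1 to 2 for *N1ICD* against *REST* in H524 and 1 to 3 for *STING* KO in COR-L88. Of the differences from fits without 1 library, 1749 kept their side of the threshold, 70 lost the call and 35 gained it. Direction was compared only where the full or the reduced fit made a call. No paired analysis was possible because the groups compared within a line share no replicate number. Depth is known only as relative library size.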
